A study of Mus musculus with 18 samples.

Results

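The genes described are those of the NRF2 antioxidant pathway: the transcription factor NRF2 (gene Nfe2l2), its inhibitor KEAP1 (Keap1), its partner MAFG (Mafg), and the detoxification targets Nqo1, Srxn1, Txnrd1 and Ephx1. These 7 of the 16593 genes named in the table were chosen by name, and every probe that the array annotation assigns to 1 of them was taken, which gave 14 of the 25697 probes in the table. A probe was tested where it was detected (detection p under 0.01) on 2 or more of 17 arrays, and 11 of the 14 passed, among 12991 probes tested in all. Each of the 7 genes kept at least 1 probe.

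The arrays measured RNA of cultured mouse neurons. Adaptaquin, an inhibitor of the prolyl hydroxylases that sense oxygen, was given at 0, 0.1 or 1 µM, without or with HCA (homocysteic acid, a glutamate analogue that starves neurons of cystine and so of glutathione). The 6 groups were therefore untreated neurons, neurons with 0.1 µM or 1 µM adaptaquin, neurons with HCA alone, and neurons with HCA and 0.1 µM or 1 µM adaptaquin. Each had 3 arrays except HCA alone, which had 2 after an array that its own title marks as an outlier was set aside. The sources used here give no strain, culture age, HCA dose or exposure time. No label says that replicates came from separate cultures, so the p-values rest on a spread between samples that could be technical.

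NRF2 is a transcription factor that is made and destroyed continually. KEAP1 presents it to a CUL3 ubiquitin ligase, and oxidants or electrophiles that react with cysteines of KEAP1 let NRF2 escape, reach the nucleus, pair with a small MAF protein such as MAFG and bind antioxidant response elements (AREs) near its target genes. Control is thus mainly over the protein, which the arrays do not measure. In brain the pathway is known to be stronger in astrocytes than in neurons.

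The promoters of the 4 genes that changed in any comparison are shown first, because the ARE is the DNA sequence through which NRF2 and MAFG act. Each is the 250 bases before the RefSeq start of the gene on build GRCm38.p6, read in the direction of the gene. Capitals mark a match, on either strand, to the ARE core TGACNNNGC or to the palindromic core TGANTCAGC. The Srxn1 promoter lies at chr2:152105274-152105523 (plus strand), that of Mafg at chr11:120633548-120633797 (minus strand), that of Nqo1 at chr8:107403206-107403455 (minus strand) and that of Ephx1 at chr1:181017570-181017819 (minus strand).
Srxn1: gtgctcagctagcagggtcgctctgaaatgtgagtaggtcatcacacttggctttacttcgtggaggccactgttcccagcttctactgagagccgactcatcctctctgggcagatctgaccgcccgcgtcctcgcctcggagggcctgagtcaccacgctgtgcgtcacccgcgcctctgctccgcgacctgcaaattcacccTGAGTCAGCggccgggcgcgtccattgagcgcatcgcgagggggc
Mafg: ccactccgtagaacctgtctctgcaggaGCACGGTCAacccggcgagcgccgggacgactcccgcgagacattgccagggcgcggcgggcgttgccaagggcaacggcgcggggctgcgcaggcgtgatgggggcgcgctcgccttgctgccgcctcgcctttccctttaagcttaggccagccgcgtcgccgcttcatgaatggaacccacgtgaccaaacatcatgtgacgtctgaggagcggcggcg
Nqo1: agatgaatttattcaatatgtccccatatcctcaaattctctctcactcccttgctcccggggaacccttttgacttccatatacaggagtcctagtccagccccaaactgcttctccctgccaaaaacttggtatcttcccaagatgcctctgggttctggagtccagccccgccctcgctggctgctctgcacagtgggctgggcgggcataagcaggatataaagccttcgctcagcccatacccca
Ephx1: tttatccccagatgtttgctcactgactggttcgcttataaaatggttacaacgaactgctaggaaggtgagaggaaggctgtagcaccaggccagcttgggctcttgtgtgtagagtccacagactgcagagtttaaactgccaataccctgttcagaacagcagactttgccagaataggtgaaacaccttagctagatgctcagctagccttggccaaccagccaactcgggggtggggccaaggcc
The Srxn1 promoter held the palindromic core TGAGTCAGC, beginning 45 bases before the start, and 1.02% of 32851 mouse promoters in the same table held that core. The Mafg promoter held the ARE core on the other strand, printed as GCACGGTCA, beginning 222 bases before the start, and 10.2% of promoters held an ARE core. Nqo1 and Ephx1 had no match in this window. Of the other members, Nfe2l2 had an ARE core match and so did 1 of the 3 promoters listed for Txnrd1, while Keap1 had none, and 10.7% of all promoters held either core. A match is a description of these letters only.

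The upper quartile of raw intensity lay between 333 and 563 on the 17 arrays, and 42.8% to 47.6% of probes were detected on each. Of 8 neuronal markers, 6 passed the filter (Rbfox3, Map2, Tubb3, Syt1, Stmn2 and Syp), while Snap25 and Nefl did not. Of 10 astrocyte markers, 8 passed (S100b and Glul did not), so markers of both cell types were measured in these cultures. Arrays of the same replicate number deviated together across groups (processing section). A fit with that number as a block is named where it changes a call. The block also shifts estimates that involve HCA alone, which has no array numbered 3. Counts of same-numbered pairs are a description, since the share of all probes with every pair in the same direction was not counted.

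HCA changed 3 of the 11 probes when its effect was averaged over the 3 adaptaquin doses. Nqo1 and Srxn1, which encode antioxidant enzymes, fell, and Mafg rose. In that comparison 9.82% of all probes tested passed the threshold of an adjusted p under 0.05, with 4.73% up and 5.1% down, and the blocked fit called 17.8%. Nfe2l2 and Keap1 did not pass. Between single groups HCA changed no member probe at 0, 0.1 or 1 µM adaptaquin in limma's test. Of all probes 0.677%, 1.26% and 0.97% were called there (0.562%, 0.916% and 0.677% up, 0.115%, 0.346% and 0.293% down). An unadjusted p under 0.05 was found for 3 of 11 member probes at each dose. Of all 12991 probes, 1416, 1532 and 1386 had one at 0, 0.1 and 1 µM.

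Adaptaquin changed 1 member, Ephx1, which rose at 1 µM without HCA. In that comparison 0.115% of all probes passed. At 0.1 µM no member probe passed without or with HCA. There 0 of 11 had an unadjusted p under 0.05 in either comparison. Of all 12991 probes limma called 0 in each, with or without the replicate block, and 142 (without HCA) and 484 (with HCA) had an unadjusted p under 0.05. At 1 µM with HCA 0 of 11 members passed at an adjusted or an unadjusted p under 0.05, and of all probes 0 passed in limma with or without the block, with 386 at an unadjusted p under 0.05. No interaction of HCA and adaptaquin passed in limma for any member or any other probe (276 and 267 probes at an unadjusted p under 0.05 for 0.1 and 1 µM), and among members only Ephx1, in its interaction with 1 µM, had an unadjusted p under 0.05.

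**Figure D1:**
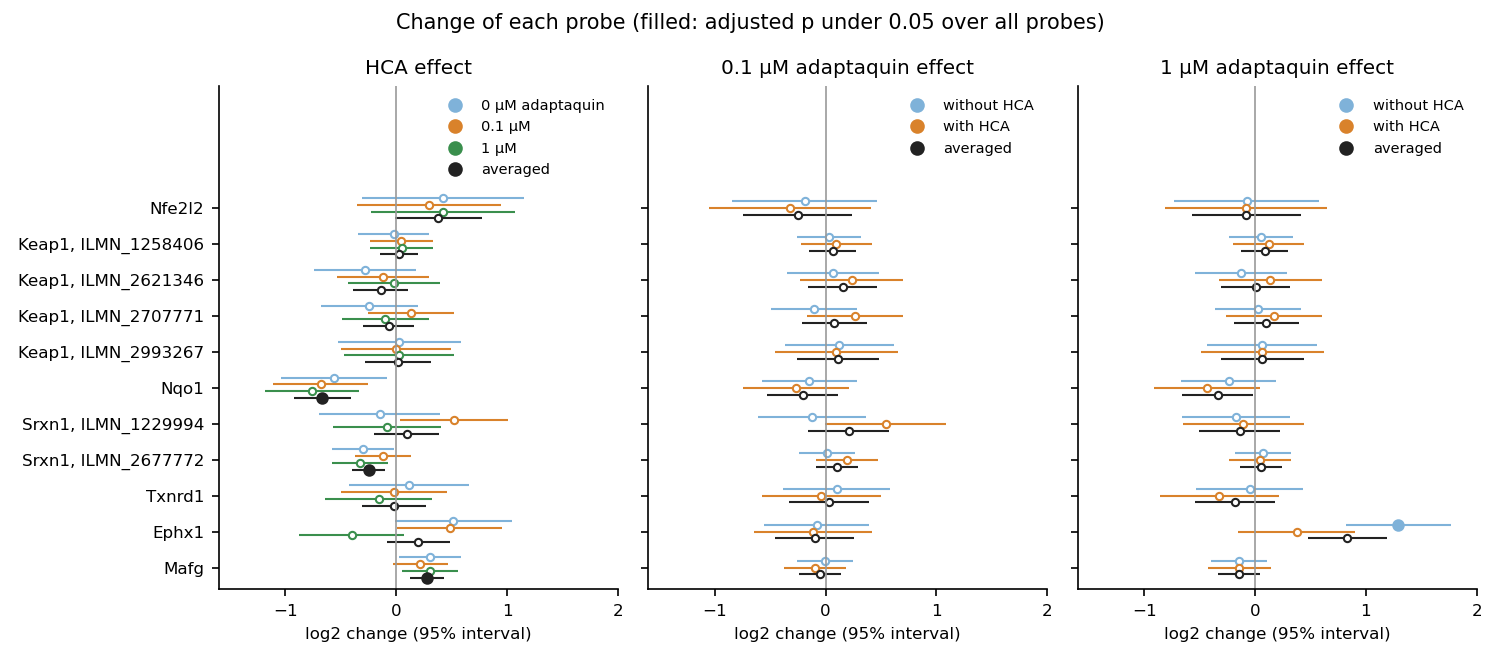
Log2 change of each of the 11 probes (points) with its 95% interval (bars), for HCA at each adaptaquin dose and averaged, and for 0.1 and 1 µM adaptaquin without HCA, with HCA and averaged. Filled points passed an adjusted p under 0.05 over all probes: Nqo1, Srxn1 and Mafg for the averaged HCA effect and Ephx1 for 1 µM without HCA. Every interval for Keap1 spans 0.

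The regulators come first. Nfe2l2, which encodes NRF2, was near the limit of detection: its probe ILMN_1224128 was detected on 8 of 17 arrays, and the other Nfe2l2 probe, ILMN_1214369, on 0. The log2 intensities of ILMN_1224128 for replicates 1, 2 and 3 were 5.47, 5.63 and 5.38 in untreated neurons, 5.19, 5.57 and 5.14 at 0.1 µM, and 5.84, 5.32 and 5.09 at 1 µM. With HCA they were 6.17 and 5.66 at 0 µM, 5.99, 5.58 and 5.21 at 0.1 µM, and 6.07, 6.41 and 5.03 at 1 µM. The 4 highest values of all 17 arrays were HCA arrays and so was the lowest, and every pair of groups next to each other in the order of the means overlapped. The averaged HCA effect on Nfe2l2 was 0.38 ± 0.18 (standard error, as for every change below; adjusted p = 0.224), with 7 of 8 pairs of same-numbered arrays higher with HCA. Leaving out 1 array, replicate 3 of HCA with 1 µM adaptaquin, the lowest of all 17, gave a rise of 0.52 (adjusted p = 0.0362). In every group with an array numbered 3, that array was the lowest, and HCA alone had none. Leaving it out thus took a further array numbered 3 from the HCA side. With the replicate block the averaged HCA effect over all 17 arrays was 0.32 ± 0.14 (adjusted p = 0.134), and no other setting called it. The effects of 1 µM adaptaquin on Nfe2l2 were -0.08 ± 0.31 without HCA and -0.08 ± 0.34 with it. Their 95% intervals, -0.73 to 0.58 and -0.81 to 0.65, allow a change of either sign. With the replicate block the effect of 1 µM with HCA was 0.10 ± 0.26. The HCA effect on Nfe2l2 at 0 µM was 0.43 ± 0.34 without the block and 0.25 ± 0.26 with it.

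Keap1, the adaptor that marks NRF2 for degradation, was the best covered gene, with 4 probes detected on 17 of 17 arrays. None of its probes passed in any of the 12 comparisons in limma, with or without the replicate block, and without the block none had an unadjusted p under 0.05. For ILMN_1258406, the group means ran from 10.54 ± 0.022 (SD, n = 2) with HCA alone to 10.66 ± 0.14 (SD, n = 3) with HCA and 1 µM adaptaquin, a smaller span than the spread within most groups. The values for replicates 1, 2 and 3 were 10.49, 10.47 and 10.73 in untreated neurons and 10.50, 10.50 and 10.84 at 1 µM. Those with HCA were 10.53 and 10.56 at 0 µM and 10.68, 10.51 and 10.79 at 1 µM. The averaged HCA effect on this probe was 0.03 ± 0.081, with an interval of -0.15 to 0.20. Across the other probes it was -0.14 ± 0.12 (ILMN_2621346), -0.07 ± 0.11 (ILMN_2707771) and 0.02 ± 0.14 (ILMN_2993267). The effect of 1 µM adaptaquin without HCA lay between -0.13 and 0.07 over the 4 probes. Keap1 values differed by replicate number: in each of the 5 groups that had an array numbered 3, that array was the highest of its group on every one of the 4 probes. The 4 probes varied together, with Pearson r between 0.58 and 0.89 over the 17 arrays, which share those numbers.

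Mafg, the small MAF partner of NRF2, was bright and detected on 17 of 17 arrays (ILMN_2764883). Without HCA its values were 11.01, 10.82 and 11.05 in untreated neurons, 11.06, 10.76 and 11.04 at 0.1 µM and 10.95, 10.65 and 10.84 at 1 µM. With HCA they were 11.38 and 11.15 at 0 µM, 11.26, 11.12 and 11.13 at 0.1 µM and 11.28, 11.05 and 11.04 at 1 µM. At each dose the HCA arrays of Mafg were all above the arrays without HCA, as 15.7%, 7.67% and 6.95% of all probes were at 0, 0.1 and 1 µM, although across doses the sets overlapped. The averaged HCA effect was a rise of 0.28 ± 0.071 (adjusted p = 0.0223), and Mafg was higher with HCA in 8 of 8 same-numbered pairs. Without HCA replicate 1 the rise was 0.24 (adjusted p = 0.0909), and it was 0.32 (adjusted p = 0.136) when arrays were scaled to a common median and 0.24 (adjusted p = 0.05005) with the titled outlier included. Without any other single array the adjusted p stayed under 0.05. By dose the differences were 0.31 ± 0.13, 0.22 ± 0.12 and 0.31 ± 0.12, and none passed alone. With the replicate block the difference at 1 µM was 0.31 ± 0.076 (adjusted p = 0.0456), where 3.47% of all probes were called. Adaptaquin at 1 µM went with lower Mafg values in 5 of 5 pairs, a difference of -0.14 ± 0.088 averaged over HCA that did not pass (adjusted p = 0.9996).

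**Figure D2:**
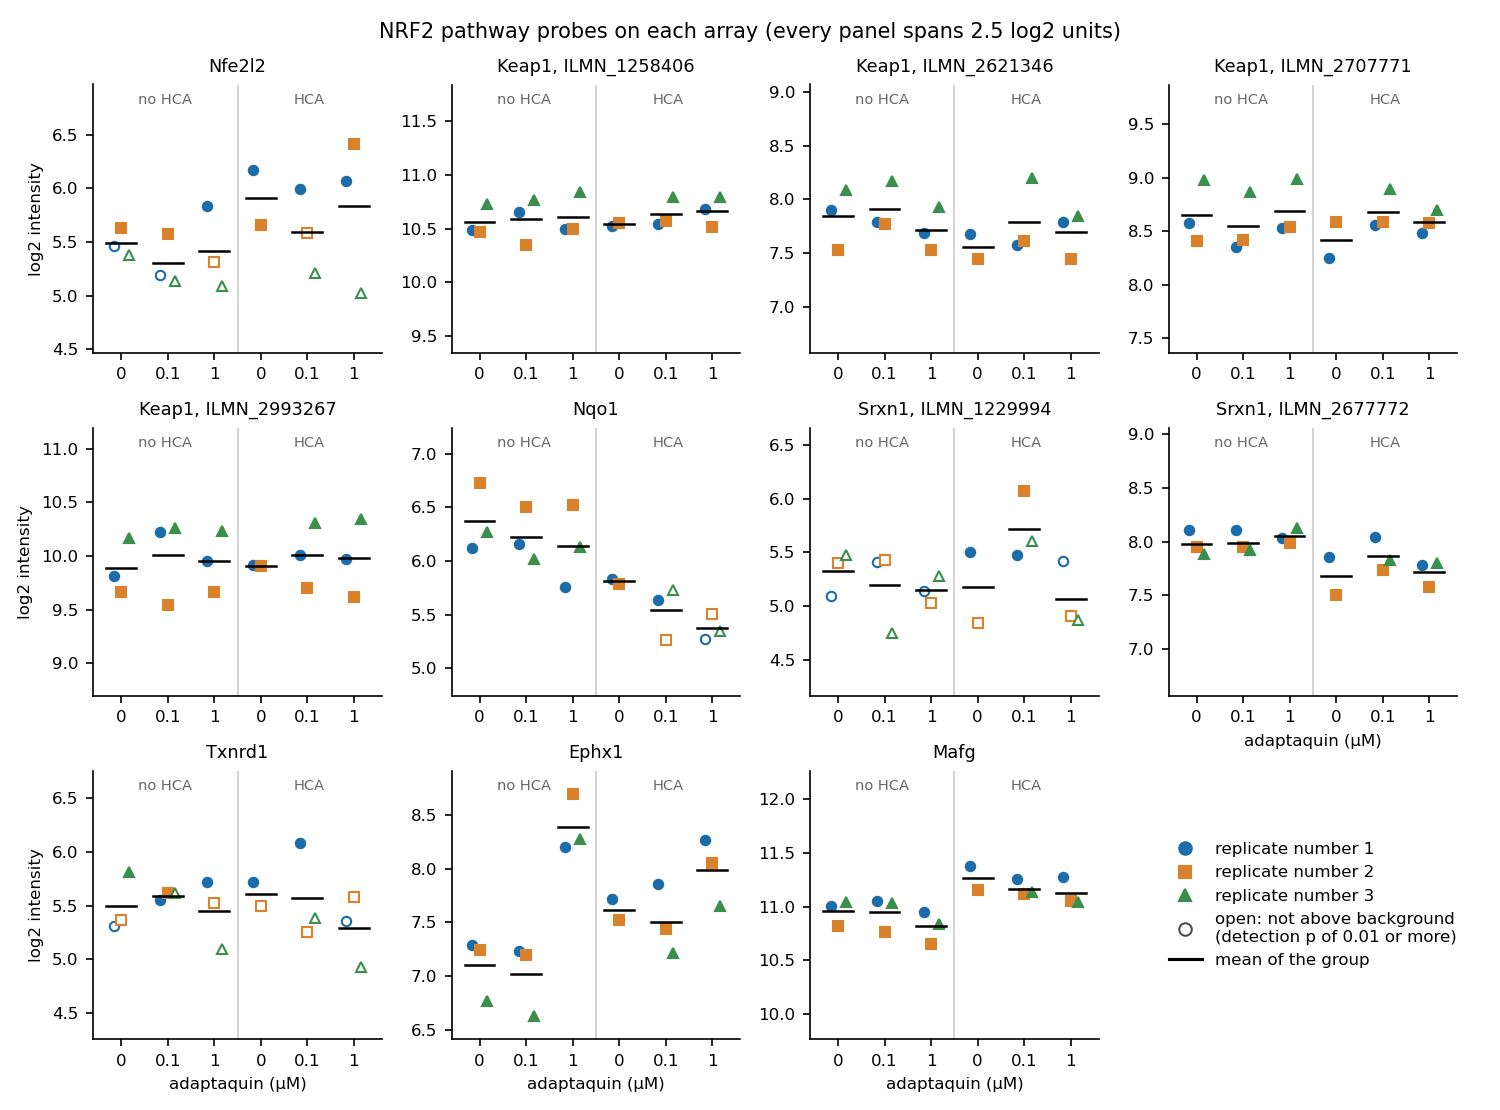
Log2 intensity (y axis) of the 11 probes on the 17 arrays, by adaptaquin dose in µM without and with HCA. Colour and shape give the replicate number, open symbols are not above background, and lines are group means. Nqo1 is lowest in the HCA groups, with open symbols, Ephx1 stands highest at 1 µM, and the Keap1 panels separate by replicate number more than by group.

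Nqo1 encodes a quinone reductase that detoxifies reactive quinones and is a standard readout of NRF2 activity. Its probe ILMN_2726371 was detected on 9 of 9 arrays without HCA and on 3 of 8 with HCA, while the other probe, ILMN_2766386, was detected on 0 of 17. The values were 6.12, 6.72 and 6.27 in untreated neurons, 6.15, 6.50 and 6.02 at 0.1 µM and 5.76, 6.52 and 6.13 at 1 µM. With HCA they were 5.83 and 5.78 at 0 µM, 5.64, 5.26 and 5.73 at 0.1 µM and 5.27, 5.51 and 5.35 at 1 µM. Among the 9 arrays without HCA, 8 were above the brightest HCA array, the exception being 1 µM replicate 1. The averaged HCA effect was a fall of 0.67 ± 0.12 on the log2 scale (-0.67, adjusted p = 0.00266), and Nqo1 was lower with HCA in 8 of 8 same-numbered pairs. Since Nqo1 was above background on 1 of 3 arrays with HCA and 0.1 µM and on 0 of 3 with HCA and 1 µM, the size of this fall includes values at the background and is not an exact fold. This call remained without each of the 17 arrays in turn (changes of -0.73 to -0.60) and under the 10 other settings that apply to it, with -0.20 and -0.22 where no background was subtracted or the authors' log2 values were used.

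By dose the HCA differences of Nqo1 were -0.56 ± 0.22 at 0 µM, -0.68 ± 0.20 at 0.1 µM and -0.76 ± 0.20 at 1 µM, with adjusted p of 0.355, 0.126 and 0.104. With the replicate block the difference at 1 µM passed (-0.76 ± 0.18, adjusted p = 0.0415), and without 1 µM replicate 1 it also did (-0.95, adjusted p = 0.0409). At 1 µM with HCA, Nqo1 was not above background on any of 3 arrays, so that difference is a bound on the measured means. The mean without HCA was at least 1.35-fold higher, from 6.13 against 5.38. Such a bound takes no account of the spread between arrays. From high to low, the group means were in the order untreated, 0.1 µM, 1 µM, HCA, HCA with 0.1 µM and HCA with 1 µM. Of neighbours in this order, only HCA (2 arrays) and HCA with 0.1 µM did not overlap, and in that comparison 19.6% of all probes did not overlap (10.6% lower at 0.1 µM). For 1 µM adaptaquin the averaged difference of Nqo1 was -0.34 ± 0.15, lower in 5 of 5 pairs and not past the threshold (unadjusted p = 0.0414, adjusted p = 0.9996). Of all 12991 probes, 453 had an unadjusted p under 0.05 in limma in that comparison. That averaged difference too includes the HCA and 1 µM arrays at the background. Against HCA alone the mean of those arrays was at least 1.08-fold lower. This too is a bound on the measured means, and the difference did not pass in limma (adjusted p = 0.9986).

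Srxn1 encodes sulfiredoxin, which restores over-oxidised peroxiredoxins. Its bright probe ILMN_2677772 was detected on 17 of 17 arrays, ILMN_1229994 on 3 and ILMN_2667346 on 1. The values of the bright probe were 8.11, 7.95 and 7.89 in untreated neurons, 8.11, 7.95 and 7.92 at 0.1 µM and 8.03, 7.99 and 8.12 at 1 µM. With HCA they were 7.86 and 7.50 at 0 µM, 8.04, 7.74 and 7.83 at 0.1 µM and 7.79, 7.58 and 7.80 at 1 µM. The groups without and with HCA stood apart at 0 and 1 µM, as 15.8% and 7.14% of all probes did in that direction, and overlapped at 0.1 µM. The averaged HCA effect was a fall of 0.25 ± 0.071 on the log2 scale (-0.25, adjusted p = 0.0375), and Srxn1 was lower with HCA in 8 of 8 same-numbered pairs.

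The Srxn1 call was near the threshold. It was lost without any 1 of 10 of the 17 arrays: replicate 1 of the untreated (adjusted p = 0.0692) or 0.1 µM group (0.0720), replicate 2 of the untreated (0.0586), 0.1 µM (0.0506), 1 µM (0.0532), HCA (0.150), HCA with 0.1 µM (0.0774) or HCA with 1 µM group (0.0737), and replicate 3 of the 1 µM (0.0699) or HCA with 0.1 µM group (0.0593). It was also lost with median scaling (adjusted p = 0.440), without a filter (0.0513) and with the titled outlier included (0.0895). By dose the bright probe differed by -0.30 ± 0.13, -0.12 ± 0.12 and -0.33 ± 0.12, and none of these passed. The probe ILMN_1229994 had an averaged HCA difference of 0.10 ± 0.14, with values from 4.75 to 6.08 that were mostly not above background. It was detected on 0 of 9 arrays without HCA and 3 of 8 with HCA, so it passed the filter only through HCA arrays. Its difference is therefore no check on the bright probe. Adaptaquin at 1 µM differed by 0.07 ± 0.12 without HCA and 0.04 ± 0.13 with HCA on the bright probe, with intervals of -0.18 to 0.32 and -0.24 to 0.32.

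Txnrd1 encodes the cytosolic thioredoxin reductase. Its probe ILMN_2484465 was detected on 6 of 17 arrays and on 0 of 3 with HCA and 1 µM adaptaquin. The values were 5.31, 5.36 and 5.82 in untreated neurons, 5.55, 5.61 and 5.62 at 0.1 µM and 5.72, 5.53 and 5.10 at 1 µM. Those with HCA were 5.73 and 5.50 at 0 µM, 6.08, 5.26 and 5.39 at 0.1 µM and 5.36, 5.58 and 4.93 at 1 µM. All groups next to each other in the order of means overlapped, and the direction of the HCA effect was split evenly over the 8 pairs. The averaged HCA difference was -0.02 ± 0.14 (interval -0.31 to 0.27), and that of 1 µM adaptaquin was -0.19 ± 0.17 (interval -0.55 to 0.18). The HCA interval includes a fall of the size seen for Srxn1, so such a fall was not excluded.

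Ephx1 encodes microsomal epoxide hydrolase, which converts epoxides to less reactive diols. It was detected on 17 of 17 arrays (ILMN_2664224) and had the largest change of the 11 probes in the 12 comparisons. The values were 7.29, 7.24 and 6.77 in untreated neurons, 7.23, 7.20 and 6.63 at 0.1 µM and 8.21, 8.69 and 8.28 at 1 µM. The 3 arrays at 1 µM were above all arrays at 0 and 0.1 µM, and in 3.6% of all probes the 1 µM arrays were likewise all above the untreated ones. The rise at 1 µM without HCA was 1.29 ± 0.22, from 7.10 ± 0.29 to 8.39 ± 0.26 (SD, n = 3 each), with an interval of 0.82 to 1.77 and an adjusted p of 0.0398. The difference at 0.1 µM was -0.08 ± 0.22. Same-numbered pairs rose by 0.91, 1.45 and 1.51 at 1 µM.

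With HCA the values of Ephx1 were 7.71 and 7.52 at 0 µM, 7.86, 7.44 and 7.21 at 0.1 µM and 8.27, 8.05 and 7.65 at 1 µM. The 1 µM arrays overlapped those with HCA alone, since replicate 3 stood below HCA replicate 1. HCA alone had no array numbered 3, which was the lowest Ephx1 array of each other group except 1 µM without HCA. The 1 µM difference with HCA, the HCA difference at 0 µM and the interaction therefore compare unlike sets of replicate numbers. The difference at 1 µM with HCA was 0.37 ± 0.25 (adjusted p = 0.9986), and the pairs numbered 1 and 2 differed by 0.56 and 0.53. The interaction of HCA and 1 µM was -0.92 ± 0.33, with an unadjusted p of 0.0151 and an adjusted p of 0.9999, so a smaller rise with HCA was not established. HCA itself went with higher Ephx1 values at 0 µM (0.52 ± 0.25) and 0.1 µM (0.48 ± 0.22) and with lower values at 1 µM (-0.40 ± 0.22), none past the threshold. At 0 µM the HCA pairs numbered 1 and 2 differed by 0.42 and 0.28. Averaged over HCA, the difference at 1 µM was 0.83 ± 0.17, higher in 5 of 5 pairs, with an adjusted p of 0.135. The blocked fit called it (0.91 ± 0.11, adjusted p = 0.00161), where 0.231% of all probes were called against 0.0924% without the block.

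The call for Ephx1 at 1 µM without HCA was lost without any 1 of its 6 arrays. Without untreated replicate 1, 2 or 3 its adjusted p was 0.102, 0.114 or 0.265, and without 1 µM replicate 1, 2 or 3 it was 0.103, 0.248 or 0.0848, with differences of 1.13 to 1.39. It was also lost with median scaling (1.07, adjusted p = 0.576), without a filter (adjusted p = 0.0654) and with only the groups compared in the fit (adjusted p = 0.499). With the replicate block the adjusted p was 0.000976. No marker of another cell type was called at 1 µM without HCA, where 0.115% of all probes were called. The median change there was -0.08 for 8 astrocyte markers, -0.20 for 6 microglial markers (1 of 6 positive), -0.40 for 2 vessel and fibroblast markers (0 of 2 positive), -0.08 for 4 oligodendrocyte markers, -0.05 for 6 progenitor markers and -0.03 for 3 markers of GABAergic neurons, and their part in the Ephx1 result was not tested.

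**Figure D3:**
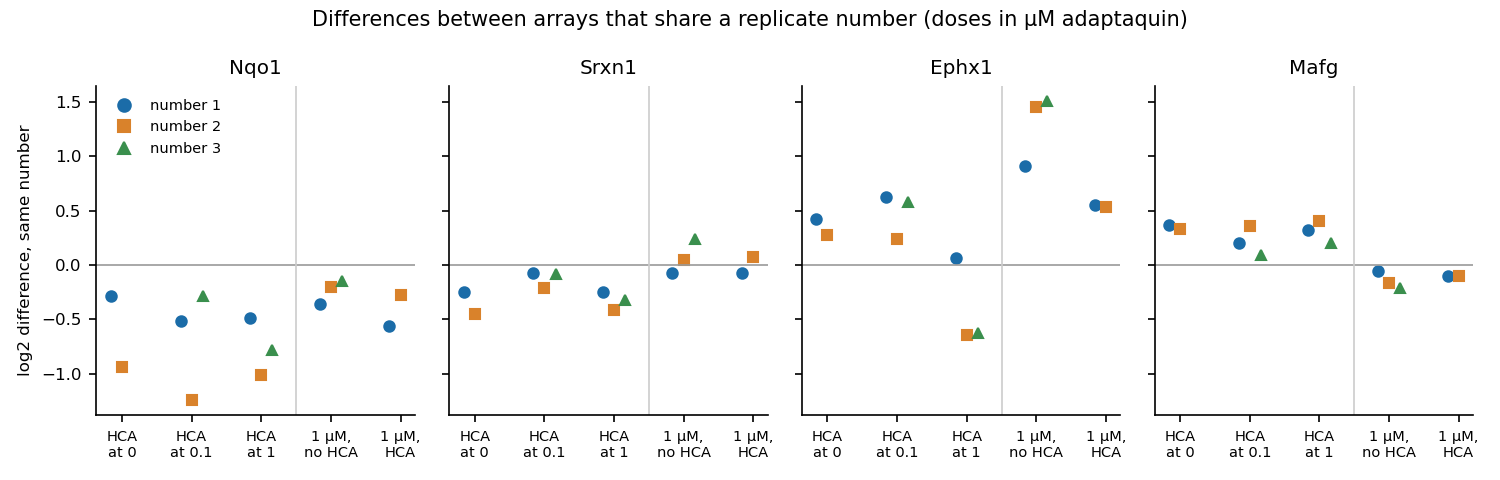
Log2 difference between arrays of the same replicate number (points, coloured by number) for the 4 genes with a called change, for HCA at 0, 0.1 and 1 µM adaptaquin and for 1 µM adaptaquin without and with HCA. Srxn1 is probe ILMN_2677772. Nqo1 and Srxn1 lie below 0 in all 8 HCA pairs, Mafg above 0 in all 8, and Ephx1 above 0 in all 5 pairs for 1 µM.

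The HCA effects went with changes in markers of other cell types. In the averaged HCA comparison 10.5% of 8922 genes, each by its brightest probe, passed (4.99% up and 5.47% down). Of the 8 astrocyte markers measured, 5 fell and 0 rose, with a median change of -0.42. The mean level of that list was 8.21 to 8.61 on arrays without HCA and 7.89 to 8.18 on arrays with HCA. Of 6 markers of proliferating progenitors, 4 fell (median -0.32), with list means of 9.66 to 10.06 without HCA and 9.27 to 9.65 with it, and 2 of 3 markers of GABAergic neurons rose (median 0.36). Among 6 neuronal markers 1 rose and 0 fell, with a median of 0.0048, and among 6 microglial markers 0 passed. The oligodendrocyte list had 1 of 4 down, and the vessel and fibroblast list 1 of 2 up. The part of these shifts in the changes of Nqo1, Srxn1 and Mafg was not tested, and in such bulk RNA fewer cells of a type and less RNA per cell cannot be told apart.

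The wider pathway was read from 4 lists, each gene by its brightest probe, and 10.5% of the 8922 genes so represented passed in the averaged HCA comparison (4.99% up and 5.47% down). Of 40 other NRF2 targets, 35 were on the array and 26 passed the filter. With HCA 2 of the 26 rose and 1 fell, and their median change was -0.03, against -0.01 for all genes. The replicate block called 2 of the 26 up and 4 down, beside 768 up and 938 down among all 8922 genes. Slc7a11, a subunit of the transporter at which HCA competes with cystine, rose by 1.76 ± 0.11 (adjusted p = 1.22e-07), from group means of 5.33 to 6.04 without HCA to 7.15 to 7.78 with HCA. It rose at each dose, by 1.81 ± 0.21, 1.66 ± 0.18 and 1.82 ± 0.18 at 0, 0.1 and 1 µM, where 0.717%, 1.36% and 1.04% of genes were called (0.572%, 1.02% and 0.762% up). Without HCA, Slc7a11 was above background on 2 of 3 arrays at 0.1 µM and on 1 of 3 at 1 µM. The sizes at those doses and the averaged rise therefore include values at the background and are not exact folds. Hmox1, which encodes the haem-degrading enzyme heme oxygenase, rose by 1.10 ± 0.17 averaged over doses (adjusted p = 0.000688), with no overlap of its group ranges between arrays without HCA at 0.1 µM (5.74 to 6.72) and with it (7.57 to 7.83), as for 7.67% of all probes in that direction. Without background correction the averaged rises were 0.74 for Slc7a11 and 0.53 for Hmox1, and both still passed. Both genes are also known targets of transcription factors other than NRF2. Gstm1, a glutathione transferase, fell by 0.27 ± 0.073 (-0.27, adjusted p = 0.0325), but this call held in only 6 of the 17 fits that left out an array, and not with median scaling (adjusted p = 0.458).

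At single doses Hmox1 passed at 0.1 µM (1.37 ± 0.28, adjusted p = 0.0230) and not at 0 or 1 µM (1.16 ± 0.31 and 0.79 ± 0.28). The call at 0.1 µM remained in 1 of 6 fits that left out an array (adjusted p of 0.0201 to 0.109). With the replicate block Hmox1 passed at 0 and 1 µM too (adjusted p of 0.0132 and 0.0421). Gclm, the modifier subunit of the enzyme that starts glutathione synthesis, differed by 0.16 ± 0.075 (adjusted p = 0.213), while Gclc, its catalytic subunit, did not pass the filter. Sqstm1, which encodes the KEAP1-binding protein p62, differed by -0.01 ± 0.066. At 1 µM adaptaquin without HCA, where 0.134% of genes were called, 0 of the 26 targets passed in limma with or without the block and 1 had an unadjusted p under 0.05, with a median change of -0.04. Slc7a11 differed there by -0.64 ± 0.18 (unadjusted p = 0.00348, adjusted p = 0.813), and Hmox1 by 0.52 ± 0.28. The Slc7a11 difference includes values at the background, since it was detected on 1 of 3 arrays at 1 µM without HCA.

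**Figure D4:**
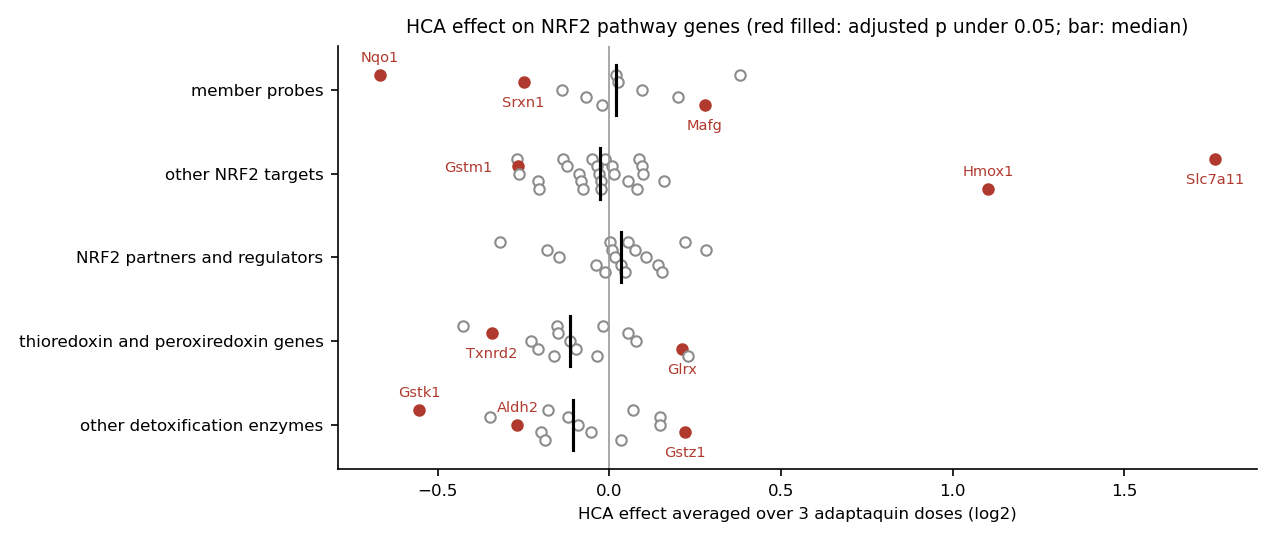
HCA effect averaged over the 3 adaptaquin doses (log2, x axis) for the 11 member probes and for each tested gene of 4 pathway lists (circles). Red filled circles passed an adjusted p under 0.05 and are named, and black bars are medians. Slc7a11 and Hmox1 stand far to the right of the other NRF2 targets, whose median is -0.03.

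Of 23 partners and regulators of NRF2, 21 were on the array and 17 passed the filter. None passed with HCA averaged over doses or in any other comparison in limma. In the averaged HCA effect 4 of the 17 had an unadjusted p under 0.05, beside 2179 of all 8922 genes. With the replicate block 2 of the 17 rose and 1 fell, beside 768 up and 938 down among all genes. Bach1, the repressor that competes with NRF2 for AREs, differed by 0.02 ± 0.062. Maff, another small MAF, differed by 0.15 ± 0.17, but these values were mostly at the background. It was detected on 0 arrays of each group without HCA and on 1 of each group with HCA, so it passed the filter only through HCA arrays. Mafk, the third small MAF, did not pass the filter. Of 15 thioredoxin and peroxiredoxin genes tested, 1 rose and 1 fell (1 up and 4 down with the block), with a median of -0.12. Txnrd2, the mitochondrial thioredoxin reductase, fell by 0.34 ± 0.073 (-0.34, adjusted p = 0.00828), and Glrx, glutaredoxin, rose by 0.21 ± 0.063 (adjusted p = 0.0491). Of 14 other detoxification enzymes tested, 1 rose and 2 fell (1 up and 4 down with the block), with a median of -0.11. Aldh2, the mitochondrial aldehyde dehydrogenase, fell by 0.27 ± 0.057 (-0.27, adjusted p = 0.00826), and Gstk1, a glutathione transferase, fell by 0.55 ± 0.17 (-0.55, adjusted p = 0.0477). Gstz1, a transferase of tyrosine breakdown, rose by 0.22 ± 0.064 (adjusted p = 0.0415). The calls of Txnrd2 and Aldh2 remained without each of the 17 arrays, while those of Glrx, Gstk1 and Gstz1 remained in 3, 4 and 4 of the 17 such fits. With median scaling none of these 5 passed (adjusted p of 0.246, 0.403, 0.405, 0.0731 and 0.312 for Txnrd2, Glrx, Aldh2, Gstk1 and Gstz1).

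The genes with the pattern most like each changed member were found by Pearson r over the 17 arrays among 8790 other named genes, as a description without a test, since the points share arrays, groups and replicate numbers. For Ephx1 they were Cdkn1a (r = 0.945), which encodes the cell cycle inhibitor p21, Pqlc3 (0.928), Ccng1 (0.925), which encodes cyclin G1, Phlda3 (0.922) and Slc19a2 (0.912), a thiamine transporter. For Mafg they were Nars (0.934) and Iars (0.898), which encode aminoacyl-tRNA synthetases, with Tsc22d3 (0.908), Plppr5 (0.901) and Cox6a2 (0.882). Nqo1 was most like Crcp (0.916), Ppp1r3c (0.894), Tgm2 (0.892), Cryl1 (0.890) and Aif1l (0.889). Srxn1 was most like B9d1 (0.910), Mmd2 (0.895), Drp2 (0.884), Dis3l (0.881) and Tmem25 (0.869). No gene appeared on more than 1 of these 4 lists, and none of the 20 was a member of the NRF2 lists. Nqo1 and Srxn1 themselves had r = 0.501 with each other.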

How the data were processed

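Intensity values of 18 arrays, which the authors deposited without normalization between arrays, were read with the detection p-value deposited beside each. A further deposited table of log2 values covers 17 arrays and equalled a quantile normalization of the log2 intensities to within 5.0e-09. The scanner software is not named in the files used here.

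With neqc of limma 3.58.1 in R 4.3.3, all 18 arrays were corrected for background by means of their detection p-values, given an offset of 16, quantile-normalized and put on the log2 scale. Probes detected at p under 0.01 on at least 2 of 17 arrays were kept. Symbols came from the platform annotation. One coefficient per group was fitted with lmFit and eBayes (11 residual and 3.40 prior degrees of freedom). Two-sided p-values were adjusted by Benjamini-Hochberg over all 12991 probes within each of 12 contrasts. The script was tested on simulated data.

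Replicate numbers paired the arrays: deviations from group means correlated at 0.195 to 0.592 in all 40 same-number pairs and at -0.463 to 0.0888 in 80 others. The block was an alternative, since no method states it.

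Members, lists and the naming rule were chosen with earlier results of these data known. Named were every member probe, the list genes that passed (at most 4 a list), 8 fixed pathway genes and the 5 genes most like each called member. A fold is given as a bound where every array of a group lacked signal above background. The bound concerns the measured means only and takes no account of the spread between arrays. Other settings tried were no background correction, the authors' values, median scaling, no or a stricter filter, brightest probes, the titled outlier, array weights, only the groups compared, both kinds of block and leaving out each array. The number of arrays limits the precision.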

Additional observations from a re-analysis of the deposited data

Results flagged for a closer look

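On the Keap1 probe ILMN_2621346, each same-numbered pair was lower at 1 µM adaptaquin without HCA and higher with HCA. The mean of the pairs differed by 0.188 on the log2 scale between the 2 settings. Some of these steps were as small as -0.0056 and 0.0047, and the interaction in the fit was 0.26 ± 0.29 (adjusted p = 0.9999).

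The Srxn1 probe ILMN_2667346, below the filter, was detected on 1 array, replicate 1 of 0.1 µM adaptaquin without HCA, at 5.62.

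The HCA array that its title marks as an outlier took no part in the comparisons. Its upper quartile of intensity was 241, and 40.9% of probes were detected. Its Keap1 values were 11.04 (ILMN_1258406), 8.53 (ILMN_2621346), 9.03 (ILMN_2707771) and 10.31 (ILMN_2993267), each above every untreated array, and 3 of them above all 17 arrays used. This array carries replicate number 3, the number whose arrays were highest for Keap1 in each other group. Its Nqo1 value, 4.81, was below all 17 arrays and not above background, and its Nfe2l2 value, 5.01, was below all 17 too.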

How the results depend on the processing

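For members, 1 probe passed at 1 µM without HCA and 3 in the averaged HCA effect, and 0 in the other 10 comparisons. With the replicate block 2 passed for HCA at 1 µM and 1 for 1 µM averaged over HCA. With the block as a random term (correlation 0.285), 1 passed for HCA at 0.1 µM, 1 for HCA at 1 µM and 1 for 1 µM averaged. The count for 1 µM averaged was also 1 with the authors' values, the titled outlier included or array weights, and that for HCA at 1 µM was 1 with array weights. At 1 µM without HCA it was 0 with median scaling, without a filter, with only the groups compared, and in all 6 fits that left out an array (0 to 0). The averaged HCA count was 1 with median scaling or the titled outlier. Leaving out an array moved the count for HCA at 1 µM between 0 and 1, and the genes called at any single dose between 1 and 2 for other NRF2 targets (2 with all arrays) and between 0 and 2 for other detoxification enzymes (0 with all arrays). That last count was 1 with either block, without background correction or with the authors' values. The replicate block changed no other call of a member.

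Over all probes, 1276 passed for the averaged HCA effect (412 with median scaling, 2310 with the block) and 15 for 1 µM without HCA (0 with median scaling, 29 with the block). HCA at 0, 0.1 and 1 µM gave 88, 164 and 126 calls (26, 59 and 21 with only the groups compared, 277, 618 and 451 with the block), and 1 µM averaged gave 12 (0 and 30). Median scaling moved the median of all probes to -0.10 for 1 µM without HCA, -0.12 for 0.1 µM and -0.14 for 1 µM with HCA, and -0.12 for 1 µM averaged. Of single values under other settings 2636 kept their side of the threshold, 92 lost and 12 gained a call, and none changed sign while called. The causes were not tested. The slide as a block was not run, since the headers give no slide.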

Other observations

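With the replicate number as a block, further genes of the pathway lists passed in the averaged HCA effect. They were chosen after their values were seen. Nfe2l1, which encodes the NRF2 relative NRF1, and Btrc, a ubiquitin ligase adaptor that also marks NRF2, had positive changes (0.28 ± 0.089 and 0.22 ± 0.083 without the block, blocked adjusted p of 0.0141 and 0.0447). Dpp3, a protein that binds KEAP1, had a negative one (-0.18 ± 0.075, blocked adjusted p = 0.0266). The peroxiredoxins Prdx1 (-0.21 ± 0.076) and Prdx4 (-0.23 ± 0.071), the methionine sulfoxide reductase Msrb1 (-0.43 ± 0.13) and the quinone reductase Nqo2 (-0.35 ± 0.12), a paralogue of Nqo1, were lower with HCA, with blocked adjusted p of 0.0139, 0.00497, 0.0447 and 0.00645. None of these passed without the block. In the blocked averaged HCA effect 17.8% of all probes tested passed.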
